A study of Mus musculus with 2 samples.

Results

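Naive-like CD8 T cells were a class of lymphocytes found among reporter-positive cells sorted from mouse hindlimb muscle. Barcodes under 500 detected genes or over 10% mitochondrial UMIs were dropped, and a remaining cell was placed in the class by its raw UMIs, the molecular tags that each stand for 1 captured RNA molecule. It had at least 2 UMIs of the T cell receptor chains Cd3d, Cd3e and Cd3g together and at least 2 of the co-receptor chains Cd8a and Cd8b1 together. It also had at most 2 UMIs of the chemokine gene Ccl5 and at most 1 of the B cell genes Cd79a, Cd79b and Ms4a1 together. Of 5302 barcodes that passed the gene and mitochondrial filters in the 2 libraries, 420 met the rule: 14 of 2636 at day 28 and 406 of 2666 at day 0. The genes of the rule chose the cells, so their levels are given as a description.

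Both libraries came from Fsp1-Cre: R26R-EYFP mice, in which Cre recombinase driven by the promoter of Fsp1, another name of S100a4, switches on a yellow fluorescent protein, and the label then stays on in the cell and its progeny. The day 28 library held YFP+CD11b- cells sorted from the hindlimb muscle of mice killed 28 days after hindlimb ischemia surgery, which cuts the blood supply of the limb. The day 0 library held cells of the same gate from mice with no surgery, and the sort left out cells with the myeloid surface protein CD11b in both. Each condition had 1 library made with 10x Genomics droplet capture and the labels give neither the number nor the age of the mice. No library from lymph node, blood or marrow was analysed here, and the day 0 muscle library itself held RNA of the erythroid and neutrophil lineages.

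Naive CD8 T cells are mature T cells that have left the thymus and have not yet met their antigen. They circulate between blood and lymph nodes, which they enter through the chemokine receptor Ccr7, survive on interleukin-7 through Il7r, and are held in a resting state in which the transcription factors Tcf7, Lef1 and Klf2 are active. After activation they lose much of this programme and gain effector genes, which include Ccl5, killer lectin-like receptors, cytotoxic granule genes, and the adhesion and calcium-binding genes Itgb1, S100a4 and S100a6.

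The stretches of 250 bases just before the transcription start are shown for 3 genes that the results turn on: Dapl1 and Igfbp4, which led the list of genes higher in these cells than in Ccl5-positive CD8 T cells, and Cd8a, which the rule used. They are from RefSeq (GRCm38.p6), are all on the plus strand, and were read at chr2:59484403-59484652, chr11:99040994-99041243 and chr6:71373177-71373426. Capitals mark matches on either strand to the GC box GGGCGG and the TATA box TATAAA.
Dapl1: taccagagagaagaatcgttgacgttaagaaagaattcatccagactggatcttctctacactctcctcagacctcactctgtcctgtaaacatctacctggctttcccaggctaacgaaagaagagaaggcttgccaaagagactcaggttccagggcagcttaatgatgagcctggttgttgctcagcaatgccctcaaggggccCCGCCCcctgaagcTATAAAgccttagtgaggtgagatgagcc
Igfbp4: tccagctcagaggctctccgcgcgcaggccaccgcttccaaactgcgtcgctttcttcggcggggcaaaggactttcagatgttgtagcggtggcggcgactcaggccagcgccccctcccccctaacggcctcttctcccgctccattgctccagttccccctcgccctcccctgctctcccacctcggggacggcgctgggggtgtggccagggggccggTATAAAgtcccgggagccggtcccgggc
Cd8a: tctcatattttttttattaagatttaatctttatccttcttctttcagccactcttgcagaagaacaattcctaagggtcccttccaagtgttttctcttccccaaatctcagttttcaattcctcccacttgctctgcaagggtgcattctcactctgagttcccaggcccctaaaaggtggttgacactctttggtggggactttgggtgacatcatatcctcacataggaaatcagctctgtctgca
The Dapl1 stretch held a GC box on the minus strand that starts 43 bases before the start and a TATA box 29 bases before it. The Igfbp4 stretch held a TATA box 28 bases before the start, and the Cd8a stretch held no match. None of the 3 held CTTTGA, the core letters that Tcf7 and Lef1 bind, or TGTGGT, those of Runx factors. Of 32851 mouse promoters of the same length, 12.4% held TATAAA, 32.7% GGGCGG, 13.8% CTTTGA and 14.0% TGTGGT on either strand. A match is a description of the letters and not a measured site.

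The day 28 library had 2653 barcodes and 38785525 UMIs, against 2668 barcodes and 19574562 UMIs at day 0. The shallowest deposited barcode had 4175 UMIs at day 28 and 3001 at day 0. The libraries shared 13 barcode sequences, 1 of them a day 0 naive-like CD8 T cell and none a day 28 one. Levels below are UMIs summed over a set of cells and divided by all UMIs of those cells, in counts for each 1000000 UMIs (CPM), and ratios are between such levels. The 95% intervals are exact, cover counting error alone and say nothing of the spread between mice. With 1 library for each condition no test was made and no p-value is given, and a gene was counted as higher or lower when its ratio passed 2-fold.

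The 406 day 0 cells were small in RNA content. Their median was 3616.5 UMIs and 1044 genes, with 3008 UMIs in the shallowest cell and 14261 in the deepest, against medians of 5386 UMIs and 1742 genes in the other 2260 day 0 cells. Cd8a and Cd8b1, the chains of the CD8 co-receptor, lie next to each other on chromosome 6 (Cd8b1 at 71322788 to 71337494 and Cd8a at 71373427 to 71379173, mm10). Both chains were detected in 299 cells, Cd8b1 alone in 100 and Cd8a alone in 7. Cd8b1 gave 72.4% of the 2 genes' UMIs (70.5 to 74.3%), against 75.9% (71.9 to 79.6%) in the Ccl5-positive CD8 T cells of the same library. Only 11 of the 406 cells had a UMI of Cd4, the co-receptor of helper T cells, against 52 of 174 CD8-negative T cells.

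Of the 6 marker genes given with the cell type name, 3 were not in the rule. Dapl1, a gene known from naive T cells, was at 617 CPM in naive-like CD8 T cells, 157 in Ccl5-positive CD8 T cells, 184 in CD8-negative T cells, 2.60 in B-type cells and 1.89 in Lyz2-high myeloid cells of day 0. Lef1 was at 301, 137, 249, 41.0 and 1.89 CPM in the same order of cell sets, and Tcf7 at 296, 195, 306, 4.26 and 2.83 CPM. Dapl1 therefore stood apart from both other T cell sets, Lef1 from the Ccl5-positive cells, and Tcf7 was at like levels in naive-like and CD8-negative T cells. At least 1 of the 3 genes was detected in 94.3% of naive-like cells, with all 3 in 128 cells, 2 in 161, 1 in 94 and none in 23. B-type cells here have at least 4 UMIs of Cd79a and Cd79b, Lyz2-high cells at least 10 of Lyz2, and neither has a Cd3 UMI. The share with at least 1 was 78.6% of Ccl5-positive CD8 T cells, 85.6% of CD8-negative T cells, 20.6% of B-type cells and 5.50% of Lyz2-high cells. At day 0 the label was not contradicted by its markers, but they came with the name and so do not test it.

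**Figure D1:**
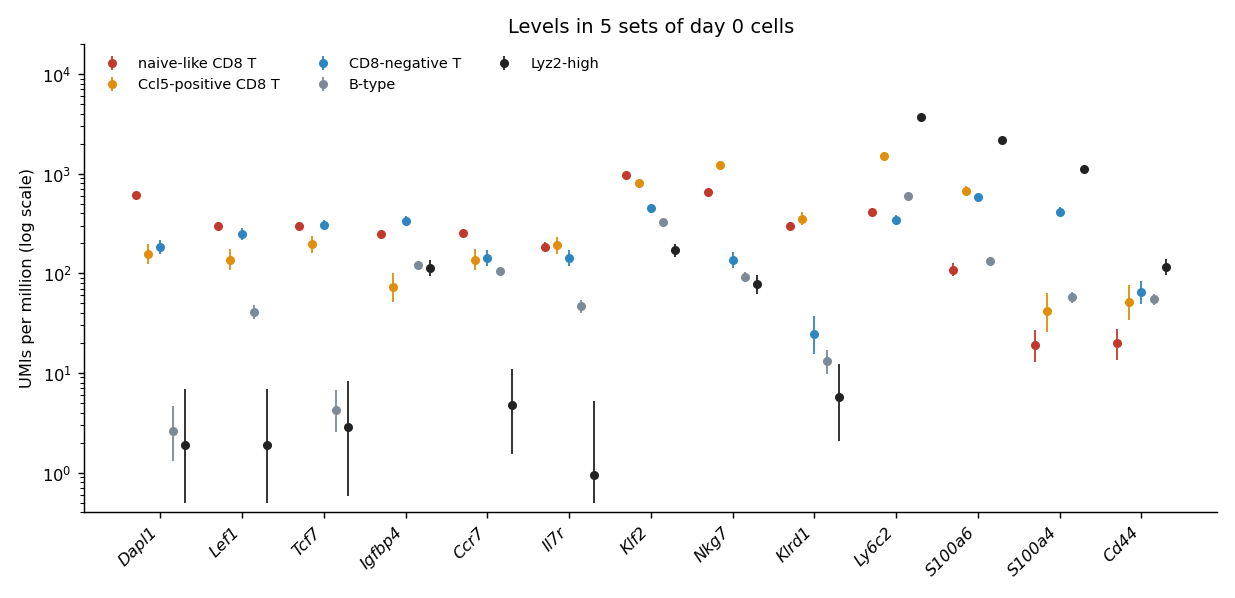
Levels of 13 genes in 5 sets of day 0 cells, as CPM on a log axis, with points for the summed level of a set and bars for its exact 95% counting interval (bars are drawn down to 0.5 at the lowest). Naive-like CD8 T cells had the highest point of the 5 sets for Dapl1 (617), Lef1 (301), Ccr7 (254) and Klf2 (970), and the lowest for S100a4 (19.1), S100a6 (109) and Cd44 (19.8).

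To set shares of cells with a UMI side by side, every cell was thinned to 3000 UMIs. Dapl1 was then found in 61.3% of naive-like cells (56.4 to 66.1%; 66.5% before thinning), against 19.4% of Ccl5-positive CD8 T cells, 33.9% of CD8-negative T cells and 0.980% of B-type cells. Cd8b1 was found in 94.8% of naive-like cells and in 2.94% of B-type cells. Before thinning, 1 cell held 31.1% of the 45 Cd8b1 UMIs of the B-type cells, and the source of these UMIs was not tested. Ccl5 was found in 11.6% of naive-like cells, 9.64% of B-type cells and 9.17% of Lyz2-high cells; the rule capped Ccl5 in the naive-like cells alone, so nothing is read from these shares. S100a4, whose promoter drives the Cre, was found in 2.46% of naive-like cells (3.20% before thinning), against 6.21% of B-type cells, 26.4% of CD8-negative T cells and 83.5% of Lyz2-high cells. The median depths before thinning were 3616.5, 4579.5, 3560.5, 4538.5 and 7981 UMIs in naive-like, Ccl5-positive, CD8-negative, B-type and Lyz2-high cells.

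RNA of several other cell types was lower in the day 0 naive-like cells than in the T cell sets they are compared with, but not of all. The 10 erythroid genes summed to 169 CPM in naive-like cells, 9513 in Ccl5-positive CD8 T cells and 4594 in CD8-negative T cells. The 9 neutrophil genes summed to 127, 3380 and 1060 CPM in the same sets. These neutrophil sums rested in part on single cells. In the Ccl5-positive set 1 cell held 96.5% of the S100a9 and 91.0% of the Elane UMIs. In the CD8-negative set 1 cell held 90.6% of the Elane UMIs. Of 8 natural killer genes, Ncr1, Klra8, Klra4 and Klre1 were at 0 in naive-like cells and the list summed to 69.2 CPM, against 355 and 426 in the other 2 sets. Of 7 fibroblast genes, Pdgfra, Col1a1, Col1a2, Col3a1 and Lum were at 0 and the list summed to 2.47 CPM; the muscle list summed to 1.85 CPM, and Itgam, which encodes CD11b, had 0 UMIs in the 406 cells. The 8 B cell genes summed to 290, 496 and 948 CPM, with 3 of them limited by the rule. The monocyte list was at 73.5 CPM in naive-like cells, 89.4 in Ccl5-positive and 683 in CD8-negative cells, and the basophil list at 30.3, 763 and 27.1 CPM. The plasma cell list, at 43.2, 55.6 and 61.0 CPM, and the endothelial list, at 47.5, 33.8 and 47.4 CPM, were at like levels in the 3 sets.

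Against the other 2260 day 0 cells, which included 612 B-type and 109 Lyz2-high cells, naive-like CD8 T cells carried the RNA of resting T cells and little RNA of dividing cells. Of 2116 genes whose mean of the 2 sets reached 50 CPM, 97 were higher (4.58%) and 561 lower (26.5%). The median log2 ratio of all 2116 genes was -0.54. When the sums were scaled by the median of ratios instead of the total, which moves each log2 ratio up by 0.54, 303 were higher and 216 lower, so higher genes made up 14.7% of the calls by total and 58.4% by that scaling. Dapl1 led at 617 CPM against 33.8, an 18.2-fold ratio (16.5 to 20.2), followed by Lef1 at 6.51-fold (5.81 to 7.29) and Tcf7 at 5.97-fold (5.33 to 6.68). Next came Actn1, an actin crosslinker, at 5.87-fold, Klk8, a serine protease gene, at 269 against 47.7 CPM, Nsg2 at 84.6 against 15.8, Thy1, a T cell surface protein, at 535 against 100, and Ctsw, a lymphocyte cathepsin, at 199 against 37.5. The other 4 of the top 12 were the T cell receptor signalling genes Skap1, Prkch, Cd247 and Zap70, between 5.16-fold and 5.28-fold.

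Genes of the T cell receptor and its signal were higher together. Outside the rule, 3 of 3 measured genes of the receptor complex were higher, with a median log2 ratio of 2.31. Of 11 measured genes of proximal receptor signalling, 8 were higher and none lower, with a median log2 ratio of 2.13. Lck, the kinase that docks on CD8, was at 425 against 89.8 CPM, and the adaptor Lat at 532 against 105 CPM. Vav1, at 49.4 against 54.7 CPM, was among the 3 that did not pass 2-fold. Of 12 naive T cell transcription factors 5 were higher (Lef1, Tcf7, Bcl11b, Klf2 and Satb1) and Myb, a progenitor factor, was lower at 13.6 against 89.4 CPM.

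Receptors for lymph node homing and survival were among the higher genes. Ccr7 was at 254 against 68.5 CPM (3.70-fold), S1pr1, the receptor for leaving lymph nodes, at 97.6 against 25.3 CPM, Klf2, which controls it, at 970 against 298 CPM, and Il7r at 185 against 50.4 CPM (3.67-fold). Igfbp4, a secreted binder of insulin-like growth factors, was at 248 against 197 CPM, a ratio of 1.26, since CD8-negative T cells and other cells carried it as well. The list of genes known from naive T cells, which holds Dapl1, Lef1, Tcf7, Actn1, Ccr7 and Igfbp4 as well, had 10 of 17 measured genes higher, and Ramp1 and Tspan32 lower, with a median of 1.89.

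The genes with the lowest ratios were those of other lineages and of cell division, among them the granule and myeloid genes Ms4a3, Ngp, Elane, Ctsg, Cd63, Mgst1 and Lyz2, Car1, Pf4, the plasma cell gene Jchain and the cyclin Ccnb2. Elane was at 21.0 against 1846 CPM, 87.9-fold lower (62.9 to 127), and Lyz2 at 37.0 against 2167 CPM, 58.5-fold lower (45.4 to 76.7). Each of the 15 measured cell cycle genes was lower, with a median of -3.45: Ccnb2 was at 2.47 against 147 CPM, Top2a, which untangles replicated DNA, at 15.4 against 169 CPM, and Pcna, the highest ratio of the list, at 43.8 against 142 CPM. Mki67, which marks dividing cells, had 1.85 CPM against 76.0. The 20 oxidative phosphorylation genes had a median of -0.74 and 2 lower, near the median of all genes, and glycolysis genes a median of -0.98 with 4 of 8 lower. In the list of S100a4 and related genes 6 of 8 were lower, with S100a4 itself at 19.1 against 246 CPM, 12.8-fold lower (9.03 to 18.9).

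Not every gene linked to effector cells was low. Of 12 effector and memory CD8 genes other than Ccl5, 8 were lower and 2 higher. Nkg7, a granule membrane gene, was at 659 against 312 CPM, a ratio of 2.11, and Klrd1, the CD94 chain of a killer lectin-like receptor, at 296 against 66.9 CPM, a ratio of 4.43. Ly6c2, a surface gene of monocytes and of some CD8 T cells whose reads may be shared with its close copy Ly6c1, was at 411 against 1232 CPM.

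The nearest cells were the 98 day 0 CD8 T cells with at least 3 Ccl5 UMIs. Of 1750 measured genes 12 were higher in naive-like cells (0.686%) and 60 lower (3.43%), and the median log2 ratio was -0.06. Dapl1 was at 617 against 157 CPM, 3.93-fold higher (3.12 to 5.01). Igfbp4 was at 248 against 73.5 CPM, 3.38-fold higher (2.41 to 4.87). Rgcc, a regulator of the cell cycle, was at 187 against 59.6 CPM, Dgka, a lipid kinase that damps T cell receptor signals, at 120 against 43.7 CPM, and Pdk1 at 96.3 against 37.7 CPM. Lef1 was 2.19-fold higher (1.70 to 2.87), at 301 against 137 CPM, and Vsir, an inhibitory receptor gene, was at 93.2 against 47.7 CPM.

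The lower side of that comparison rested in large part on single cells of the Ccl5-positive set. For 11 of its 12 lowest named genes 1 cell held over 55% of the set's UMIs: 98.5% for S100a8, 98.3% for Prss34, 96.5% for S100a9, 91.5% for Ms4a3, 91.0% for Elane, and 55.1 to 77.0% for Ctsg, Mpo, Mcpt8, Prtn3, Ccl3 and Cd24a. For the chemokine Ccl4, at 22.2 against 389 CPM, 1 cell held 50.5%. These are granulocyte, basophil and erythroid genes or chemokines, and the comparison was therefore repeated without any cell of either set that had at least 2 UMIs of other lineages' marker genes, a step chosen after the values had been seen. It left 287 naive-like and 54 Ccl5-positive cells.

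Between these cells 26 of 1676 genes were higher in naive-like cells (1.55%) and 44 lower (2.63%). Of the genes called before, 10 of the 12 higher and 22 of the 60 lower were called again. Igfbp4 now led, at 265 against 24.3 CPM, a 10.9-fold ratio (4.94 to 29.9) that rests on 6 UMIs in the Ccl5-positive cells. Rgcc was at 180 against 24.3 CPM (7.40-fold), Dapl1 at 637 against 130 CPM (4.92-fold, 3.45 to 7.25), Ramp1, a partner of the receptor for calcitonin gene-related peptide, at 134 against 32.4 CPM, and Dgka at 131 against 44.5 CPM. Of the 44 lower genes, 10 were in the effector and memory list, and the genes with the lowest ratios included those that follow. The chemokine Xcl1 was at 5.59 against 101 CPM, 18.1-fold lower (7.25 to 54.0), and Ccl4 at 10.3 against 158 CPM, 15.4-fold lower (7.74 to 33.3). Ctla2a, a protease inhibitor, was at 46.6 against 470 CPM, S100a6 at 93.2 against 741 CPM and its partner Anxa2 at 19.6 against 142 CPM. Il2rb, the receptor chain shared by interleukin-2 and interleukin-15, was at 22.4 against 162 CPM, 7.24-fold lower (4.26 to 12.6). The integrin Itgb1 was at 24.2 against 101 CPM and Ly6c2 at 417 against 1547 CPM, 3.71-fold lower (3.23 to 4.27).

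By group, 8 of 11 effector and memory genes were lower over all cells (median -1.89) and 10 of 12 in the cells without other lineages' RNA (median -1.98). Of 16 genes known from naive T cells, 4 were higher over all cells (median 0.59) and 7 in the reduced sets (median 0.52). The remaining T cell programme differed little. None of 7 homing genes passed 2-fold, with Ccr7 at 254 against 137 CPM and Klf2 at 970 against 796. Tcf7 was at 296 against 195 CPM, a ratio of 1.52 (1.22 to 1.91), and Il7r at 185 against 191 CPM. Among 13 receptor signalling genes only Sh2d1a, an adaptor of SLAM receptors, passed 2-fold, at 48.8 against 107 CPM. Bcl2, which protects from cell death, was lower at 191 against 401 CPM, Klrd1 was at 296 against 354 CPM and Nkg7 at 659 against 1229 CPM. None of 15 MHC class I genes or 20 oxidative phosphorylation genes passed 2-fold.

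Lists of stress and immune response gave small differences. Of 16 immediate early genes 2 were lower in naive-like than in Ccl5-positive CD8 T cells over all cells (median -0.26), and of 9 interferon-stimulated genes 1 was higher (median 0.31). Of 17 genes of the Gimap family and of actin, 1 was lower (median -0.20). The 11 cytokine receptor and signalling genes had 1 higher and 3 lower, with a median of -0.04.

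**Figure D2:**
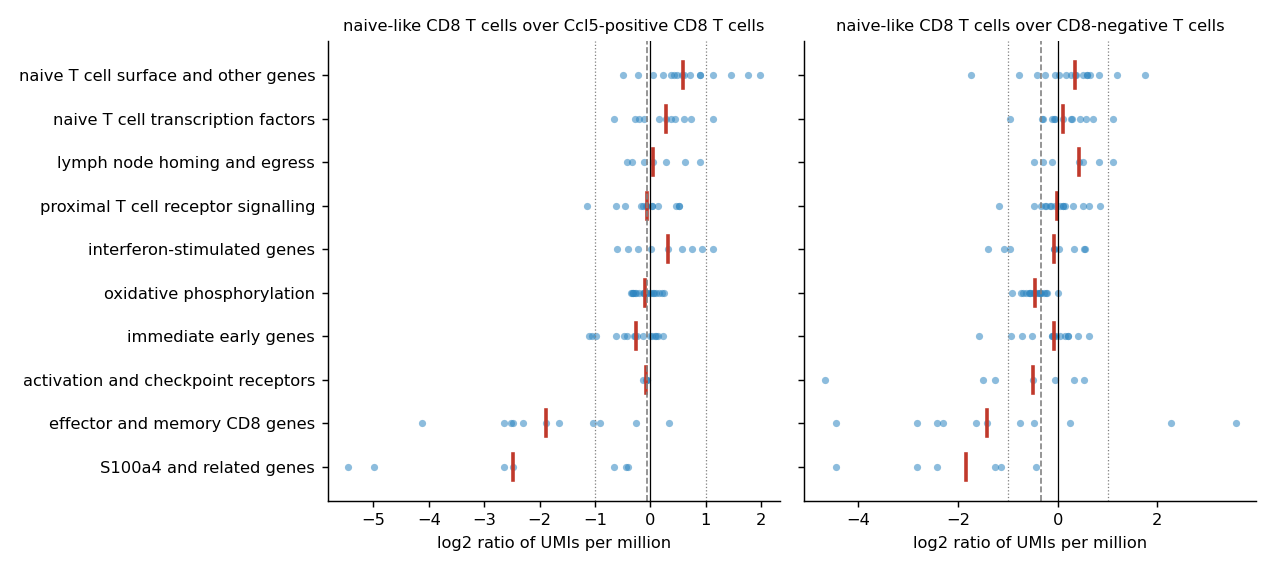
Log2 ratios of the measured genes of 10 lists (points), naive-like CD8 T cells over Ccl5-positive CD8 T cells on the left and over CD8-negative T cells on the right, both at day 0. Red bars are list medians, dashed lines the medians of all genes (-0.06 and -0.33), dotted lines mark 2-fold; the effector and memory list had medians of -1.89 and -1.41 and the S100a4 list of -2.48 and -1.84, with the oxidative phosphorylation list near the median of all genes in both.

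The 174 day 0 T cells without any Cd8a or Cd8b1 UMI and with at most 2 Ccl5 UMIs were the other near set. Of 1934 measured genes, 17 were higher in naive-like CD8 T cells (0.879%) and 170 lower (8.79%). The median of all genes was -0.33 on the log2 scale, and under median-of-ratios scaling 40 were higher and 77 lower, so that higher genes were 9.09% of the calls by total and 34.2% by that scaling. The 3 genes with the highest ratios are known from cytotoxic lymphocytes. Klrd1 was at 296 against 24.8 CPM, 11.9-fold higher (7.79 to 19.2), Ctsw at 199 against 31.6 CPM (6.31-fold) and Nkg7 at 659 against 137 CPM (4.82-fold, 3.99 to 5.87). Lamb3, a laminin chain gene, was at 126 against 28.2 CPM, Dapl1 at 617 against 184 CPM (3.35-fold, 2.84 to 3.98), the interferon-stimulated gene Epsti1 at 283 against 84.7 CPM and Klf2 at 970 against 449 CPM (2.16-fold, 1.93 to 2.42).

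The lower genes included costimulatory receptors and genes of cell division. Tnfrsf4, the costimulatory receptor OX40, was at 6.17 CPM in naive-like cells against 158 in CD8-negative cells, 25.6-fold lower (13.5 to 54.5), and S100a4 at 19.1 against 417 CPM, 21.8-fold lower (15.1 to 32.5). The lectin gene Lgals3 was at 9.26 against 245 CPM, the cell division gene Birc5 at 7.41 against 112 CPM and Stmn1 at 33.3 against 371 CPM. Of 6 measured cell cycle genes 5 were lower (median -2.58), as were 5 of 6 genes of the S100a4 list (median -1.84), 6 of 11 effector and memory genes (median -1.41, with Nkg7 and Klrd1 higher) and 3 of 7 activation receptors (Tnfrsf4, Icos and Tnfrsf18). Here too 1 cell held 90.6% of the Elane, 70.6% of the Ctsg and 63.2% of the Prtn3 UMIs of the CD8-negative set.

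Without cells that had at least 2 UMIs of other lineages, 287 naive-like and 103 CD8-negative cells remained; 16 of 1814 genes were higher (0.882%) and 113 lower (6.23%), and 9 of the 17 higher and 66 of the 170 lower genes were called again. Klrd1 was at 316 against 27.2 CPM, Nkg7 at 691 against 79.0 CPM, 8.75-fold higher (6.14 to 12.9), and Runx3, the transcription factor of the CD8 lineage, at 82.9 against 27.2 CPM, 3.05-fold higher (1.63 to 6.34). Ly6c2 was at 417 against 79.0 CPM, 5.27-fold higher (3.68 to 7.80), and at 411 against 345 CPM over all cells. Among the genes with the lowest ratios, some are known from helper and regulatory T cells: Tnfrsf4 had 1 UMI in the naive-like cells (0.932 against 225 CPM), Cd40lg was at 4.66 against 104 CPM, Cd4 at 5.59 against 106 CPM, Ikzf2, the factor Helios, at 6.52 against 116 CPM, and S100a4 had 14 UMIs against 214, a level 40.5-fold lower (23.6 to 75.3). Tcf7 at 296 against 306 CPM, Lef1 at 301 against 249 CPM and Igfbp4 at 248 against 333 CPM over all cells did not separate naive-like CD8 cells from CD8-negative T cells by 2-fold.

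Across CD8 T cells of day 0 the genes differed at different points of the Ccl5 count, for which the rule allowed up to 2 UMIs. Cells with 0, 1 to 2, 3 to 9 and 10 or more Ccl5 UMIs numbered 348, 58, 19 and 79. Dapl1 was at 609, 656, 315 and 115 CPM in this order, and the cells with 1 to 2 UMIs were at the level of those with none. Igfbp4 was at 272, 126, 153 and 52.7 CPM and was already lower in cells with 1 to 2 UMIs. Lef1 was at 312, 244, 143 and 135 CPM. Ly6c2 was higher at each step, at 371, 618, 1259 and 1588 CPM, and S100a6 was at 93.6, 187, 286 and 778 CPM. The deeper cells hold more UMIs of any gene, and the median depth was 3574.5 UMIs at a count of 0 and 3926.5 at 1 to 2.

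**Figure D3:**
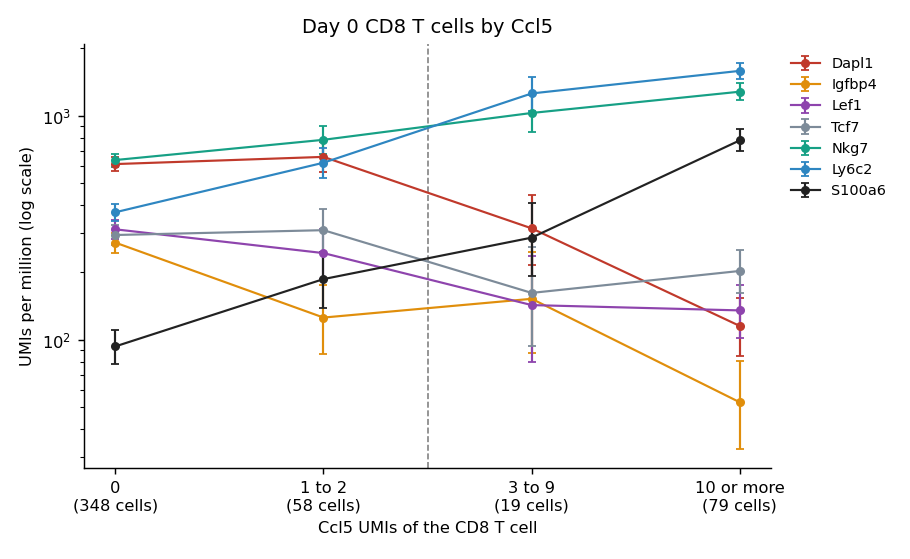
Levels of 7 genes in day 0 CD8 T cells grouped by the cell's Ccl5 UMIs, as CPM on a log axis with exact 95% counting intervals; the dashed line is the boundary of the rule between 2 and 3 UMIs. Dapl1 stayed at 609 and 656 left of the line and was at 315 and 115 right of it, while Ly6c2 was at 371, 618, 1259 and 1588 from left to right.

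Cells just inside and just outside the thresholds are given without a test. At 2 Ccl5 UMIs, inside the rule, 10 cells had 843 CPM of Dapl1 and 1175 of Ly6c2, and at 3 UMIs, outside it, 5 cells had 214 and 454. At a Cd8a and Cd8b1 sum of 2, inside, 57 cells had 624 CPM of Dapl1, and at a sum of 1, outside, 32 cells had 287. At a Cd3 sum of 2 or 3, inside, there were 1 and 11 cells, and at 1, outside, 4 cells, so that threshold cut few cells. At 1 B cell gene UMI, inside, 72 cells had 614 CPM of Dapl1, and at 2, outside, 19 cells had 429.

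For most genes the spread between the 406 cells was near that of sampling. At low means the ratio below stays near 1 even where cells differ, so it cannot show that they were alike. After thinning to 3000 UMIs the variance over the mean, which is about 1 when like cells are sampled independently, had a median of 1.02 over the 4115 genes at a mean of at least 0.05 UMIs. It lay between 0.8 and 1.2 for 92.6% of them and was at least 2 for 25 genes (0.608%). It was 1.05 for Cd8a and 1.10 for Cd8b1, whose sum the rule set at 2 or more. Among T cell genes outside the rule it was 1.07 for Tcf7, 1.30 for Lef1 and 1.40 for Ccr7 and Il7r. For Dapl1, which had 999 UMIs in 270 cells and at most 18 in 1 cell, it was 2.43.

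The 15 most spread genes were of different kinds. Actb (23.3), Malat1 (7.45) and Tmsb4x (3.25) were abundant genes found in every cell. S100a6 (7.17) had its 176 UMIs in 43 cells, and 5 cells held over 50% of them. Ctla2a (4.67) had 120 UMIs in 46 cells. Tyrobp (4.63) and Irf8 (3.43), genes of myeloid and plasmacytoid dendritic cells, rested on 2 cells, with 34 and 26 of 90 Tyrobp UMIs and 33 and 20 of 74 Irf8 UMIs. Ptms, Furin, Lgals1, Itgb1 and Cd52 lay between 2.31 and 3.22. Ly6c2 (3.09) was broad, with 666 UMIs in 196 cells, and the interferon-stimulated gene Ifi27l2a (3.05) was found in 176 cells.

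**Figure D4:**
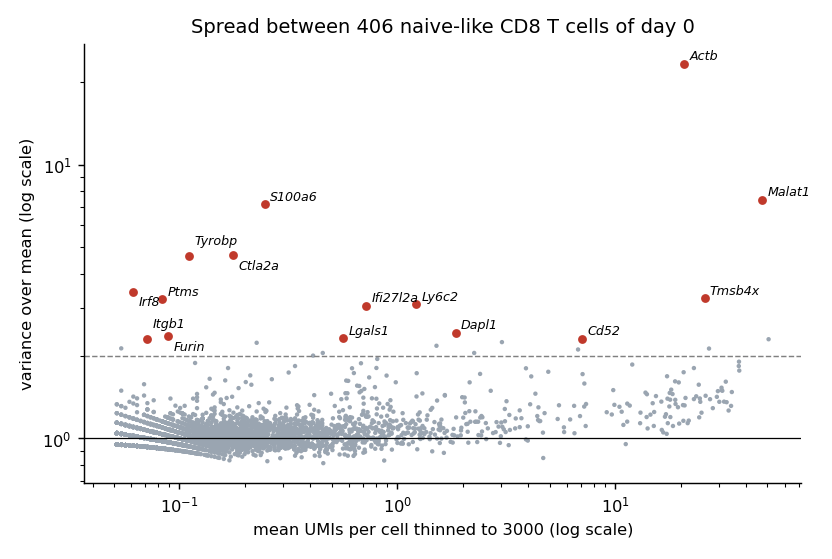
Variance over mean of UMIs per cell (log axis) against the mean (log axis) for 4115 genes in 406 day 0 naive-like CD8 T cells thinned to 3000 UMIs; the 15 genes with the highest ratio are red, the solid line is 1 and the dashed line 2. Most genes lie along 1, Actb is the highest at 23.3, and S100a6, Ly6c2 and Dapl1 stand above genes of like mean.

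To see what went with these genes, cells were set apart by their thinned counts, a choice made after the spread was seen, and no test was made. The 13 cells with at least 2 S100a6 UMIs, against the 370 with none, had more UMIs of several genes, some of them known from memory T cells. They had 12 S100a4 UMIs against 4, a ratio per cell of 85.4 (25.9 to 363), 16.7-fold more Itgb1 (6.85 to 38.7), 6.23-fold more Lgals1 (4.24 to 8.94), 4.08-fold more Ifi27l2a (2.76 to 5.87) and 8.76-fold more Cd44 (2.08 to 28.3). Lef1 had 1 UMI in the 13 cells, a ratio of 0.0804 (0.00203 to 0.451), and Klf2 was at a ratio of 0.453 (0.267 to 0.719). Cd8b1 did not differ between them, at a ratio of 1.08 (0.771 to 1.46). These 13 cells were deeper before thinning, at a median of 5499 against 3583 UMIs. Day 0 Lyz2-high cells also carried S100a4, S100a6, Cd44, Itgb1 and Ifi27l2a, at 1109, 2170, 116, 67.1 and 314 CPM. Whether the 13 cells included barcodes with RNA of 2 cell types was not tested.

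The Ly6c2 split ran differently. The 116 cells with at least 2 Ly6c2 UMIs had 1.39-fold more Dapl1 (1.19 to 1.64) and 1.29-fold more Nkg7 (1.11 to 1.51) than the 227 with none, and 2.88-fold more of the few Ccl5 UMIs (1.55 to 5.46). They had less Itgb1, at a ratio of 0.163 (0.0187 to 0.657), less S100a6, at 0.526 (0.294 to 0.895), less Ramp1, at 0.538 (0.354 to 0.797), and less Npc2, a sterol carrier, at 0.716 (0.603 to 0.846). So high Ly6c2 went with Dapl1 and not with S100a6 inside the class, although both were higher in Ccl5-positive CD8 T cells. The 175 cells with at least 2 Dapl1 UMIs had 1.51-fold more Lef1 (1.19 to 1.93), 1.35-fold more Tcf7 (1.07 to 1.72) and 1.88-fold more Ly6c2 (1.51 to 2.35) than the 151 with none, and less Ctla2a, at 0.275 (0.139 to 0.510).

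Summed over lists, each of the 406 cells had between 3 and 34 UMIs of the 20 genes known from naive T cells, with a median of 15. The 25 immediate early genes, which tissue digestion can switch on, gave a median of 18 and a range of 4 to 72. The 38 interferon-stimulated genes gave a median of 3 and a highest count of 36, and the 24 cell cycle genes a median of 1 and a highest count of 9, with none in 197 cells. These are raw counts and include the cells' differences in depth.

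The share of naive-like CD8 T cells was far lower in the day 28 library: 14 of 2636 cells, 0.531% (0.291 to 0.890%), against 406 of 2666, 15.2% (13.9 to 16.6%), at day 0. The ratio of shares was 0.0349 (0.0189 to 0.0592). It was 0.175 (0.0982 to 0.295) for Ccl5-positive CD8 T cells, with 17 against 98 cells, 0.157 (0.101 to 0.236) for CD8-negative T cells, with 27 against 174, 0.560 for B-type cells, with 339 against 612, and 3.69 for Lyz2-high cells, with 398 against 109. Over all kept cells the interval of naive-like cells did not overlap those of the other T cell sets. Depth moved with this result, since 309 of the 406 day 0 cells, 76.1%, had fewer UMIs than the shallowest day 28 barcode at 4175, against 38.5% of all kept day 0 cells. Among barcodes with at least 4175 UMIs there were 14 naive-like cells (0.531%) against 97 (5.91%), and the ratio was 0.0898 (0.0473 to 0.158). At that depth the ratio was 0.160 (0.0881 to 0.276) for Ccl5-positive CD8 T cells, with 17 against 66 cells, an interval that overlaps that of naive-like cells. It was 0.305 (0.185 to 0.493) for CD8-negative T cells, with 27 against 55 cells, an interval that does not. The lower limit of each library was set before deposit, and its part in the remaining difference was not tested. Surgery, mice, sort and library cannot be told apart with 1 library on each side.

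The 14 day 28 cells were a mixed set. Of these, 7 had at least 20 UMIs of monocyte, dendritic and neutrophil markers, against 2 of 406 at day 0, where the median was 1. Some of these genes were detected in more cells of the whole day 28 library, without thinning, but not all were at higher levels there. Prtn3 was detected in 85.3% of kept day 28 cells against 26.6% at day 0, and Elane in 81.9% against 24.9%. In B-type cells Prtn3 was detected in 71.4% against 14.9%, and was at 1062 against 645 CPM. Over kept cells Prtn3 was at 2417 CPM at day 28 against 979 at day 0, and Elane at 2723 against 1695 CPM. Lyz2 was at 1650 against 1991 CPM and Siglech at 39.9 against 65.7 CPM. The cutoff of 20 is on raw counts, and kept day 28 cells were deeper, at a median of 12387.5 UMIs against 4844. Among the 7 cells, 3 had 260, 175 and 103 such UMIs and totals of 33069, 24132 and 15522, led by Lyz2, Prtn3 and Elane. The other 4 had 58, 51, 49 and 41, with 13, 12, 5 and 5 UMIs of Siglech and 20, 29, 30 and 27 of Bst2, genes of plasmacytoid dendritic cells. Among these 4, the cells with 58 and 49 had no UMI of Dapl1, Lef1 or Tcf7, and had 2 and 3 Cd3 UMIs, so their markers do not bear out the name. The remaining 7 cells had 1 to 8 myeloid and dendritic UMIs, totals of 4201 to 6466 and at least 1 of Dapl1, Lef1 and Tcf7, and 1 of them had 16 UMIs of B cell markers. Of the 6 naive CD8 T markers, the summed level was 1290 CPM in the 14 cells, 2369 in the 7 with few myeloid UMIs, 943 in the 7 with many, and 3565 at day 0. Without the cells of 20 or more, the numbers were 7 against 404 and the ratio of shares was 0.0175 (0.00700 to 0.0364).

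**Figure D5:**
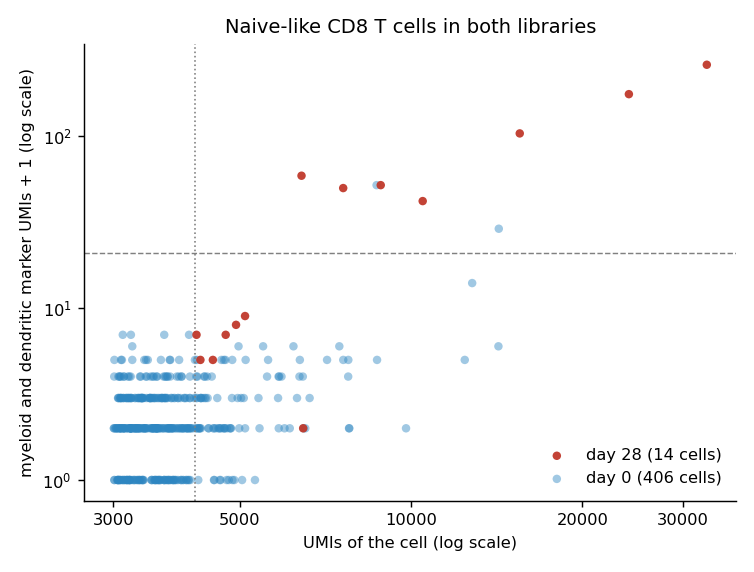
Each naive-like CD8 T cell by its total UMIs (log axis) and its UMIs of monocyte, dendritic and neutrophil markers plus 1 (log axis), 14 cells of day 28 in red and 406 of day 0 in blue. The dotted line is the shallowest day 28 barcode (4175 UMIs) and the dashed line 20 marker UMIs, above which lie 7 day 28 and 2 day 0 cells.

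Gene levels were compared with and without these cells. Over all 14 against 406 cells, 170 of 949 genes whose mean of the 2 sets reached 100 CPM were higher at day 28 (17.9%) and 69 lower (7.27%), and the median of all genes was 0.20. Under median-of-ratios scaling, which moves log2 ratios by -0.29, 102 were higher and 109 lower, so higher genes were 71.1% of the calls by total and 48.3% by that scaling. The highest were genes of other cell types: Prtn3 at 1319 against 19.1 CPM, with 47.6% of the day 28 UMIs in 1 cell, Siglech at 250 against 3.70 CPM, found in 4 cells, Lyz2 at 1141 against 37.0 CPM, with 77.5% in 1 cell, and Lgals3, Ctsg, Cox6a2, Spi1 and Ctsh. Without the cells of 20 or more myeloid and dendritic UMIs, 7 against 404 cells, 45 of 762 genes were higher (5.91%) and 103 lower (13.5%). Lyz2, Siglech and Prtn3 are among the genes that chose the removed cells, so their lower levels there follow from the choice. Prtn3 still had 8 UMIs at 234 against 18.2 CPM.

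Genes of the naive programme were lower at day 28, by amounts that depended on those cells. Dapl1 was at 200 CPM in the 14 day 28 cells against 617 at day 0, a ratio of 0.324 (0.214 to 0.471), and at 322 against 625 CPM in the reduced sets, 0.515 (0.256 to 0.925). Lef1 was at 128 against 301 CPM (0.427) and then at 205 against 304 CPM (0.673, 0.269 to 1.40). Klf2 was at 257 against 970 CPM (0.265, 0.185 to 0.368) and then at 409 against 975 CPM (0.420, 0.229 to 0.707), and it was also lower in day 28 B-type cells, at a ratio of 0.260. Ccr7 had 5 UMIs, 35.6 against 254 CPM (0.140, 0.0454 to 0.330), and 0 UMIs in the 7 cells with few myeloid UMIs, where 404 day 0 cells had 406, so that it was at least 2.90-fold lower against a floor of 3 UMIs. Its ratio in B-type cells was 0.220. The same genes were also lower at day 28 in the other T cell sets, from which no cells were left out. In CD8-negative T cells Dapl1 was at 2.61 against 184 CPM, Lef1 at 15.6 against 249, Klf2 at 112 against 449 and Ccr7 at 26.1 against 142. In Ccl5-positive CD8 T cells Dapl1 was at 20.4 against 157 CPM, Lef1 at 61.3 against 137, Klf2 at 170 against 796 and Ccr7 at 20.4 against 137.

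The other named genes that were lower over all 14 cells were Gimap1, Evl, Ptprcap, Skap1, Shisa5, Ms4a4b and Jak1, at ratios of 0.145 to 0.238. Of these, Shisa5, Evl, Ms4a4b, Skap1 and Gimap1 were also under 0.5 in day 28 B-type cells, at 0.250, 0.283, 0.310, 0.361 and 0.453, against 0.555 for Jak1 and 0.771 for Ptprcap. Among B-type cells 19 of 1282 genes were higher at day 28 (1.48%) and 52 lower (4.06%). In the 7 against 404 cells the named genes rested on 1 to 9 day 28 UMIs each: Jchain, Stat4, Rabgap1l, Srm, Klf3, Rnaset2b and Birc6 were higher, and Evl, Arhgef1, Ucp2, Nedd8, Polr1d, Sri, Ier2 and Mrpl30 lower.

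By group, 8 of 14 genes known from naive T cells were lower and 1 higher over all 14 cells (median -1.26), and 3 of 16 lower in the reduced sets (median -0.44). Of the 8 measured genes of receptor signalling, 5 were lower (median -1.27), and 1 in the reduced sets (median -0.54). The transcription factor list had 5 of 8 lower (median -1.34), and 2 higher and 1 lower of 9 in the reduced sets (median -0.16). Effector and memory genes had 5 higher and 2 lower of 8 (median 1.58), and 1 lower of 6 in the reduced sets (median 0.04). All 4 measured cell cycle genes were higher over the 14 cells (median 2.53) and none was measured in the reduced sets. S100a4 had 11 UMIs in the 14 cells (78.4 against 19.1 CPM) and 0 in the 7 with few myeloid UMIs, where the floor of 3 UMIs lies above the day 0 level.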

How the data were processed

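The deposited files hold raw UMI counts per gene and cell barcode for 27998 mouse gene identifiers, 1 matrix for each library, made by the authors with Cell Ranger 2.1.1 and STAR on mm10, per the submitters' processing notes. How barcodes were selected before deposit is not given in the sources used here. Of the identifiers, 27722 matched GENCODE vM21, which gave coordinates.

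Barcodes with under 500 genes or over 10% mitochondrial UMIs were left out. The members, the 20 gene lists and the 16 marker lists were chosen with earlier results of these data known. UMIs were summed over each set of cells and scaled to CPM, with exact Poisson intervals, ratios with conditional binomial intervals and shares with Clopper-Pearson intervals, all at 95% and for counting error alone. A gene was measured at a mean of 50 CPM, or 100 CPM between days, and called at 2-fold. Genes with 0 UMIs in 1 set were bounded with 3 UMIs. Genes of the rule entered no count or median. The text names the 12 highest and 12 lowest ratios of each day 0 comparison, the 8 and 8 of the day comparison and the 15 genes of highest variance over mean, leaving out mitochondrial, ribosomal, haemoglobin, sex-linked and unnamed genes, plus list members and a fixed set of marker genes. Not every gene of these ranks is printed, and some are not reported here. Thinning to 3000 UMIs used seed 1. Scrublet called 6 barcodes at day 28 and 4 at day 0 as doublets, 0.226% and 0.150%, and was taken not to have worked, so doublets were removed only as an alternative. The summing and the intervals were tested on simulated data. Python 3.11.15, numpy 2.4.6, scipy 1.17.1, pandas 2.3.3, scanpy 1.11.5 and matplotlib 3.10.9 were used.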

Additional observations from a re-analysis of the deposited data

How the results depend on the processing

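No paired analysis was possible because each condition has 1 library, and for the same reason no replicate could be left out. The depth limits what can be seen: a naive-like cell holds few UMIs of most genes, and the 14 day 28 cells fewer still. The direction of the share held under each alternative tried. The day 28 cells numbered 9 with no Ccl5 UMI allowed, 9 with no B gene UMI allowed, 5 on thinned cells and 7 with under 20 myeloid and dendritic UMIs. The day 0 cells numbered 249 at 1000 genes or more and 97 at or above the lowest day 28 total. The ratio of shares was 0.0898 at or above that total, 0.0132 (0.00426 to 0.0311) on thinned cells and 0.0175 with under 20 myeloid and dendritic UMIs.

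Counts of genes past 2-fold moved with the level filter more than with other choices in each of the 4 comparisons. Against other day 0 cells, the higher genes numbered 59 by the mean of per-cell CPM, 61 on thinned cells, 303 by median-of-ratios scaling, 1125 with no filter and 23 at 200 CPM or more, and the lower genes 216 by that scaling, 3840 with no filter and 113 at 200 CPM or more. Against Ccl5-positive CD8 T cells, the higher genes numbered 22 on thinned cells, 675 with no filter, 2 at 200 CPM or more and 26 without cells that carry other lineages' UMIs, and the lower ones 1757 with no filter and 20 at 200 CPM or more. Against CD8-negative T cells, the higher genes numbered 11 by per-cell CPM, 40 by median-of-ratios scaling, 521 with no filter and 3 at 200 CPM or more. The lower ones numbered 102 by per-cell CPM, 107 on thinned cells, 77 by that scaling, 2307 with no filter, 31 at 200 CPM or more and 113 without cells that carry other lineages' UMIs. Between days, the higher genes numbered 88 by per-cell CPM, 102 by that scaling, 2780 with no filter, 64 at 200 CPM or more, 100 with no Ccl5 UMI allowed and 45 with under 20 myeloid and dendritic UMIs. The lower ones numbered 109 by that scaling, 649 with no filter and 33 at 200 CPM or more.

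Of 1972 values of single genes and lists under the alternatives, 11 that were at least 2-fold as reported turned round in sign. Sign changes of smaller ratios were not counted among these 11. Another 300 values moved: ratios of single genes beyond their counting interval, list medians beyond an interval over their genes, or variance over mean by a set factor. Without cells that carry other lineages' UMIs, the log2 ratio to Ccl5-positive CD8 T cells became 0.26 for S100a8, 1.05 for Elane, 0.47 for Ctsg and 0.88 for Prtn3, and that to CD8-negative T cells 0.18 for Ctsg and 0.40 for Lyz2. Elane, Prtn3 and Lyz2 are among the genes that chose the cells left out, and 1 cell had held 43.2% of the Lyz2 UMIs of the CD8-negative set and 59.3 to 98.5% of the UMIs of the other genes. Between days, on thinned cells the effector and memory median became -0.049 and the log2 ratio of Ly6c2 -0.093. With under 20 myeloid and dendritic UMIs, the cytokine receptor median became 0.78, Lyz2 -0.34 and Ly6c2 -0.12. The cause of those between days was not tested. Removing cells with 2 or more UMIs of other lineages left no day 28 cell, so it gave no value between days. The shares of the other T cell sets at the day 28 depth, and the alternatives by other lineages' UMIs in both sets and by myeloid and dendritic UMIs were chosen after seeing the data.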

Other observations

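Actb, the gene of cytoplasmic actin, was the most uneven gene between the naive-like CD8 T cells. In cells thinned to 3000 UMIs it had from 0 to 131 UMIs, with quartiles of 7, 12 and 23, and a variance over mean of 23.3. That ratio was of the same order in other lymphocytes, at 18.7 in Ccl5-positive CD8 T cells, 33.9 in CD8-negative T cells and 24.4 in B-type cells of day 0, and at 22.8 in B-type cells of day 28. The 105 naive-like cells in the upper quartile had a median of 3554 UMIs before thinning, against 3674.5 in the 116 of the lower quartile. Of 918 genes with at least 60 thinned UMIs, 11 were at least 2-fold higher in the upper quartile and 2 at least 2-fold lower.

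The genes that went with Actb were few and recurred in other cells. Cbx3, a heterochromatin protein gene, had 88 against 16 UMIs, a ratio per cell of 6.08 (3.54 to 11.1). Pdcd4, an inhibitor of translation, had 152 against 38 (4.42, 3.08 to 6.48), and Ptpn22, a phosphatase that damps T cell receptor signals, 124 against 37 (3.70, 2.55 to 5.50). In B-type cells of day 0 the ratios of the same 3 genes were 4.87 (3.85 to 6.21), 2.98 and 2.95, in CD8-negative T cells 4.49, 4.65 and 3.92, and in Ccl5-positive CD8 T cells 10.2, 5.56 and 3.51. In B-type cells of day 28 they were 5.64, 2.22 and 0.576, so Ptpn22 did not go with Actb there. Actg1, the other cytoplasmic actin gene, differed little between the quartiles of naive-like cells, at 1.18 (1.03 to 1.34), as did Cd8b1 at 1.11 and Dapl1 at 0.961. These genes were picked from the same cells after their values were seen, and the intervals cover counting error alone.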
